A study of Caenorhabditis elegans with 4 samples.

Results

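Chromosome IV carried 1055 of the 7493 genomic regions, or 14.1%, that were enriched for the Hox protein LIN-39 in third-stage (L3) larvae of Caenorhabditis elegans. The members are all entries of the authors' deposited list that lie on chromosome IV, whatever their score. The list holds regions in which DNA precipitated with the tagged protein (ChIP) outnumbered unprecipitated DNA (input), at a q-value, a p-value adjusted for the number of regions tested, below 0.01. From the q-values the number of tested regions was inferred to be 25497, so 29.4% of them were listed. This share is that of the whole genome, and how many regions were tested on IV was not determined.

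ChIP and input DNA came from the same strain and stage, in 2 replicates of each (4 libraries). The ChIP libraries were made with an affinity-purified goat polyclonal antibody against EGFP. The input libraries were made without precipitation. Both kinds derive from hermaphrodites of strain OP18, which carries the unc-119(ed3) mutation on III and the transgene wgIs18. That transgene came from biolistic bombardment and holds a rescuing unc-119(+) copy and a lin-39 fusion with the tags TY1, EGFP and 3xFLAG. The genotype lists no change at the endogenous lin-39 gene. Animals grew from synchronized L1 larvae in liquid culture at 20 °C and were fixed in 2% formaldehyde. The protocol's lysis step names embryos, whereas the stage label is L3. Whole animals were used, so signal from all cells that express the fusion protein is mixed. One list serves both replicates. No value below has a spread between replicates, and intervals and p-values cover counting error within the list only.

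LIN-39 is a Hox-family transcription factor that acts in the middle of the body, where it specifies vulval precursor cells, ventral cord neurons and the migration of neuroblasts. Several genes that act with it in the vulva lie on chromosome IV. They include egl-18 and elt-6, which encode GATA factors, lin-3, which encodes the EGF-like inductive signal, and lin-1, which encodes an ETS factor downstream of that signal. Autosomes of this species have gene-rich centres with little recombination, flanked by arms with more repeats and more recombination. Chromosome IV also carries most 21U-RNA (piRNA) genes of the species, in broad domains. No annotation of the list's genome build (WormBase WS180) was used here. All coordinates are those of WS180, no gene was assigned to any region, and none of these genes was compared with the regions.

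Regions on IV were sparser than on II, III and X and denser than on V. Over the 17.47 Mb from the chromosome start to the last region end, 1055 regions gave 60.4 per Mb, against 68.8 per Mb on II, III, V and X together. The density ratio was 0.877 (exact 95% binomial interval 0.820 to 0.938). Widened for the clustering of regions, by the variance of counts in 100 kb windows, the interval ran from 0.790 to 0.974. The pool includes X, the densest of the 4 at 85.4 per Mb. The direction depended on the chromosome set against IV. The ratio was 0.707 to X (0.653 to 0.766), 0.779 to III (0.714 to 0.849) and 0.872 to II (0.800 to 0.951), but 1.24 to V (1.13 to 1.35). These 4 intervals were not widened. Regions on IV covered 524 kb, or 3.00% of the span, against 3.40% on the 4 chromosomes together.

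The regions of IV were unequally shared between its ends. With the first and last 30% of the span counted as arms, of 5.24 Mb each, the left arm held 381 regions, the centre 450 and the right arm 224. The left arm was the densest at 72.7 per Mb, followed by the centre at 64.4 per Mb and the right arm at 42.7 per Mb. The left arm therefore had 1.70 times the density of the right arm (interval 1.44 to 2.02; exact binomial test, two-sided, adjusted p = 5.4e-10 over 3 comparisons within IV). The right arm had 0.664 times the density of the centre (0.563 to 0.781; exact binomial test, adjusted p = 5.8e-07). The left arm did not differ from the centre beyond counting error, at a ratio of 1.13 (0.982 to 1.30; exact binomial test, adjusted p = 0.0859).

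The arms were kept apart with their difference in this list already known, so these p-values describe it and do not test it afresh. The tests also treat regions as independent, and neighbouring regions were clustered. In 100 kb windows the variance of the counts within an arm or the centre was 2.79 times their mean in the left arm, 2.32 times in the centre and 2.35 times in the right arm. With the intervals widened by that dispersion, left over right ran from 1.31 to 2.21 and right over centre from 0.519 to 0.848. Both still lay to one side of 1 at this window size. Unevenness over longer distances, such as that between 1 Mb windows, was not included in the widening.

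**Figure D1:**
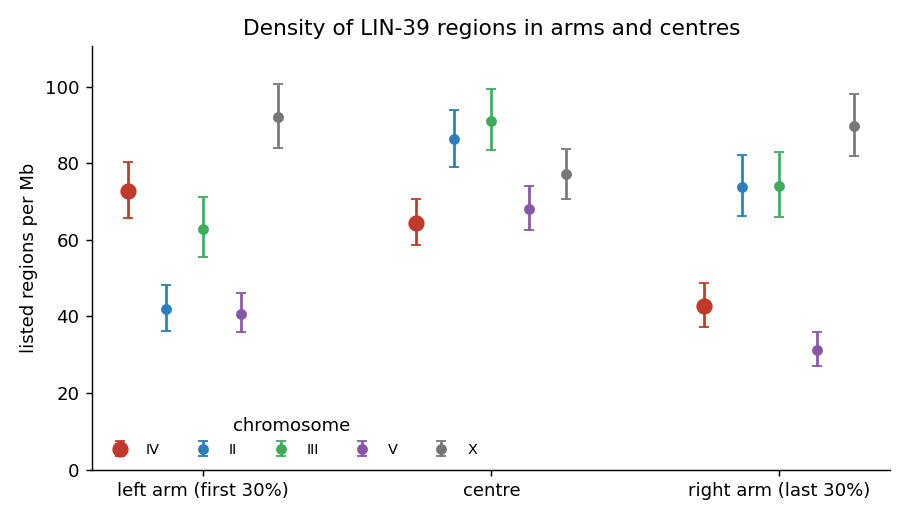
Listed LIN-39 regions per Mb (vertical axis) in the left arm, centre and right arm of chromosome IV (red, first in each set) and of II, III, V and X. Points are densities and bars exact 95% Poisson intervals of the counts. On IV the left arm stands at 72.7 and the right arm at 42.7 per Mb, whereas on II the left arm (41.9) is below the right arm (73.8).

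The share of arm regions that lay in the left arm was higher on IV than on the 4 other chromosomes together. The odds of lying in the left rather than the right arm were 1.87 times higher on IV than on II, III, V and X together (interval 1.55 to 2.26; Fisher's exact test, two-sided, p = 9.31e-12). Left over right was 1.70 on IV, against 0.568 on II, 0.850 on III, 1.30 on V and 1.03 on X. Taken singly, the odds on IV were 2.99 times those on II (adjusted p = 7.07e-19), 2.00 times those on III (adjusted p = 1.12e-08), 1.66 times those on X (adjusted p = 2.11e-06) and 1.31 times those on V (adjusted p = 0.0361), by Fisher's exact test adjusted over the 4 chromosomes. With the interval widened by the dispersion of 100 kb windows, the odds against V ran from 0.859 to 1.99 and no longer excluded 1. The left-to-right difference of IV was thus not separated from that of V. The difference between the arms of IV was known beforehand, so these p-values too describe it and do not test it afresh.

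Set against the centre, the left arm of IV also stood apart from 3 chromosomes. On II, III and V the left arm had 0.486, 0.691 and 0.598 times the density of the centre, against 1.13 on IV. The odds of lying in the left arm rather than the centre were 2.32 times higher on IV than on II, 1.63 times higher than on III and 1.89 times higher than on V (Fisher's exact test, adjusted p = 5.43e-14, 3.89e-06 and 1.91e-09 over 8 comparisons). On X, where the left arm was 1.19 times as dense as the centre, the odds ratio of IV to X was 0.946, with an interval of 0.784 to 1.14. The right arm behaved differently. Its density relative to the centre was 0.664 on IV, against 0.459 on V, 0.813 on III, 0.855 on II and 1.16 on X. The odds for the right arm were 0.570 times those on X (adjusted p = 1.03e-07), 0.776 times those on II (adjusted p = 0.0253) and 1.44 times those on V (adjusted p = 0.00271) in Fisher's exact test. Against III they were 0.817 times, with an interval of 0.655 to 1.02. The intervals were 0.625 to 0.963 against II and 1.14 to 1.83 against V. All 8 comparisons use arms whose difference on IV was already known, and they treat regions as independent. Their intervals were not widened by the dispersion of 100 kb windows, and whether each call would remain was not tested.

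In 10 equal segments of 1.75 Mb, numbered from the left end, IV held 103, 135, 143, 105, 121, 87, 137, 112, 60 and 52 regions. The fullest were thus segments 3 and 7, and the emptiest segments 9 and 10. Within the right arm, segment 8, at 64.1 per Mb, was close to the 64.4 per Mb of the centre, while segments 9 and 10 had 34.3 and 29.8 per Mb. The last 2 segments together held 112 regions, or 10.6% of those on IV on 20% of its span. Inside the centre, segment 6 was sparse as well, at 49.8 per Mb between 69.3 and 78.4 per Mb on either side.

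**Figure D2:**
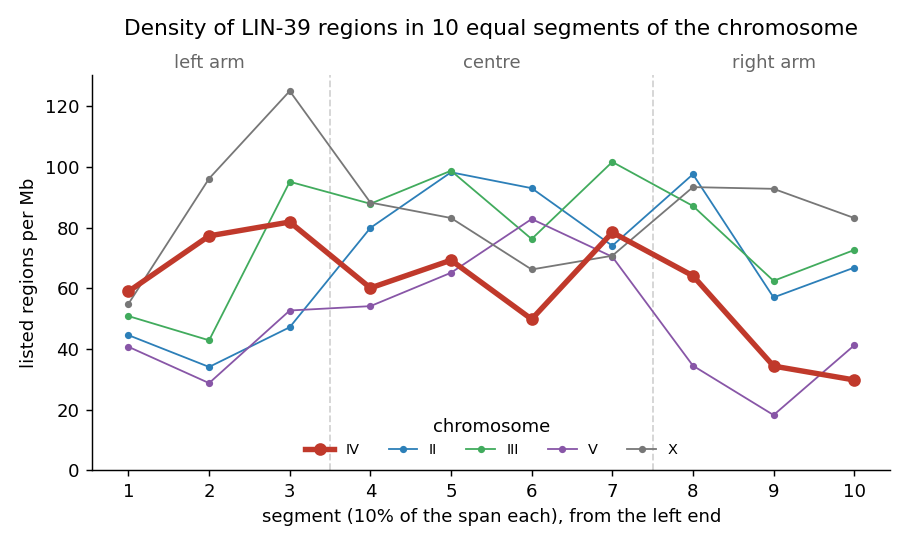
Listed LIN-39 regions per Mb (vertical axis) in 10 equal segments of the chromosome (horizontal axis, numbered from the left end) for IV (thick red line) and for II, III, V and X (thin lines). Dashed lines mark the borders of arms and centre. On IV segments 2 and 3 (77.3 and 81.9 per Mb) stand above segments 9 and 10 (34.3 and 29.8 per Mb), and X peaks at 125 per Mb in its segment 3.

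The other chromosomes shared some features of this profile and not others. X was also fullest in segment 3. In segments 2 and 3, where IV had 77.3 and 81.9 per Mb, X had 96.2 and 125 per Mb. In segments 9 and 10, where IV had 34.3 and 29.8 per Mb, X had 92.8 and 83.2 per Mb. In segment 2 IV had 77.3 per Mb, against 34.1 on II and 42.8 on III. In segment 3 IV had 81.9 per Mb, against 95.1 on III. In segments 8 to 10 IV had 64.1, 34.3 and 29.8 per Mb, against 34.5, 18.2 and 41.2 on V, which was also sparse at its right end. Segment 9 of V was emptier than any of the 10 segments of IV, with 38 regions.

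In 1 Mb windows the 17 complete windows of IV held 22 to 89 regions with a median of 61, against 13 to 127 with a median of 72 in the 65 complete windows of II, III, V and X. From the left end, the windows of IV held 56, 83, 61, 85, 71, 74, 56, 89, 50, 41, 66, 84, 72, 56, 40, 22 and 31 regions. A shorter last window of 0.471 Mb held 18. The fullest window ran from 7000001 to 8000000, with 89 regions that covered 40.1 kb. The emptiest ran from 15000001 to 16000000, with 22 regions that covered 12.9 kb. The first 14 windows all held at least 41 regions and the other 3 at most 40. The closest were window 10, with 41, and window 15, with 40, and this split was not tested. A second dip lay in the centre, where the windows from 8000001 to 10000000 held 50 and 41. Of the 17 windows, 5 were above the median of the other chromosomes and 11 below it.

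**Figure D3:**
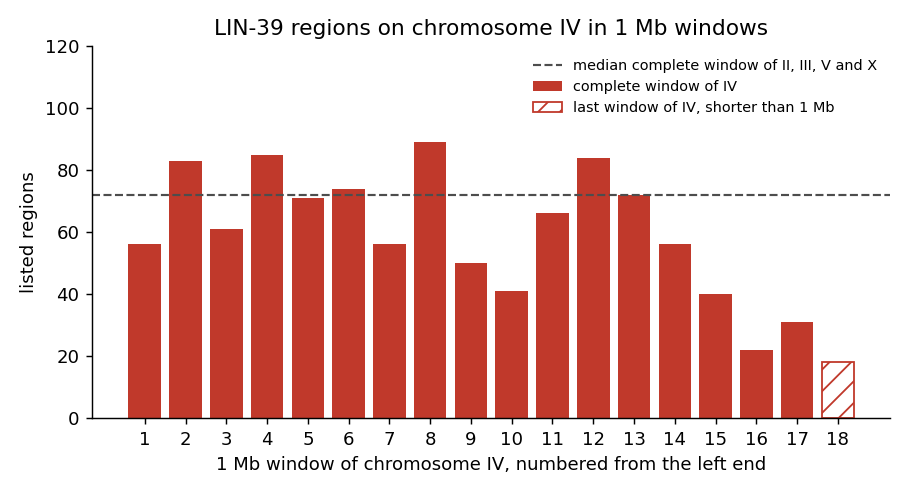
Number of listed LIN-39 regions (vertical axis) in successive 1 Mb windows of chromosome IV, numbered from the left end. Solid bars are complete windows, the hatched bar is the shorter last one and the dashed line is the median of 72 in complete windows of II, III, V and X. Windows 15 to 17 hold 40, 22 and 31 regions, fewer than any of windows 1 to 14.

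At finer scale the counts of IV were uneven but seldom 0. In 174 windows of 100 kb the mean was 6.05 regions and the variance was 2.71 times the mean. On II, III, V and X the variance was 2.88, 2.26, 2.97 and 2.16 times the mean. A single such window of IV had no region, against 4 on II, 2 on III, 19 on V and 3 on X. The fullest one, from 5900001 to 6000000, held 21 regions of 185 to 1882 bp, which covered 11.6% of it. Their median enrichment, the ratio of ChIP to scaled input reads as inferred from the q-values, was 2.67-fold.

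The left arm held more regions than the right arm in each of the 14 partly overlapping classes of region compared, and the interval of the ratio included 1 in 3 of them. In the first 10% of the list by q the arms held 37 and 24 regions, and the ratio of 1.54 was one of these 3 (0.898 to 2.69). Among regions in the first 50% of the list by q, the left arm held 186 and the right arm 102, a ratio of 1.82 (1.42 to 2.35). In the last 50% the numbers were 195 and 122, a ratio of 1.598 (1.27 to 2.02). By width, the ratio was 1.86 below 250 bp, 1.67 from 250 to under 500 bp and 1.78 from 500 to under 1000 bp. At 1000 bp or more the arms held 27 and 21 regions, and the ratio of 1.29 had an interval that included 1 (0.700 to 2.39). By enrichment, left over right was 1.47 below 2-fold (1.04 to 2.08), 1.88 from 2-fold to 3-fold and 1.67 at 3-fold or more. The interval included 1 in none of these enrichment classes. By input density relative to the median region of IV, the ratio was 1.74 in regions at 1.5 or more and 1.84 from 0.5 to 1.5. In regions below 0.5 it was 1.27 (0.842 to 1.92). The intervals of all 14 classes cover counting error only and were not widened for the clustering of regions.

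Widths on IV resembled those elsewhere. The median width was 385 bp (quartiles 275 and 583 bp), against 371 bp (quartiles 257 and 571 bp) on II, III, V and X. Regions below 50 bp made up 3.51% on IV and 3.85% on the others, and regions of 1000 bp or more 7.20% and 7.74%. Between parts of IV the medians were 378 bp in the left arm, 380.5 bp in the centre and 412.5 bp in the right arm. The sparse end of the chromosome had the larger share of broad regions. In the last 2 segments 16 of 112 regions were 1000 bp or wider, or 14.3% (exact interval 8.39 to 22.2), against 60 of 943, or 6.36% (4.89 to 8.11), in the first 8. This contrast was chosen after the values were seen and was not tested.

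Median enrichment was similar along the chromosome, and the share of regions that reached 2-fold was lower towards the right end. Reads could be inferred for 1054 of the 1055 regions. The median region of IV held 84 ChIP reads against 33 scaled input reads, and the median enrichment was 2.52-fold (interquartile range 2.06 to 3.35), against 2.49-fold (2.03 to 3.22) on II, III, V and X. It was 2.50-fold in the left arm, 2.53-fold in the centre and 2.47-fold in the right arm. By segment the median ran from 2.30-fold in segment 10 to 2.60-fold in segment 4, inside the interquartile range of each of the 10. Input density relative to the median region of IV was 0.968 in the left arm, 1.01 in the centre and 1.02 in the right arm. At least 2-fold enrichment was reached by 77.7% of regions in the left arm, 79.7% in the centre and 74.1% in the right arm. By segment this share ran from 61.5% in segment 10 to 83.0% in segment 2. In segments 9 and 10 together it was 66.1%, against 79.2% in segments 1 to 8, a contrast that was chosen after the values were seen and was not tested. The median q was 9.33e-05 in the left arm, 6.22e-05 in the centre and 0.000265 in the right arm.

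**Figure D4:**
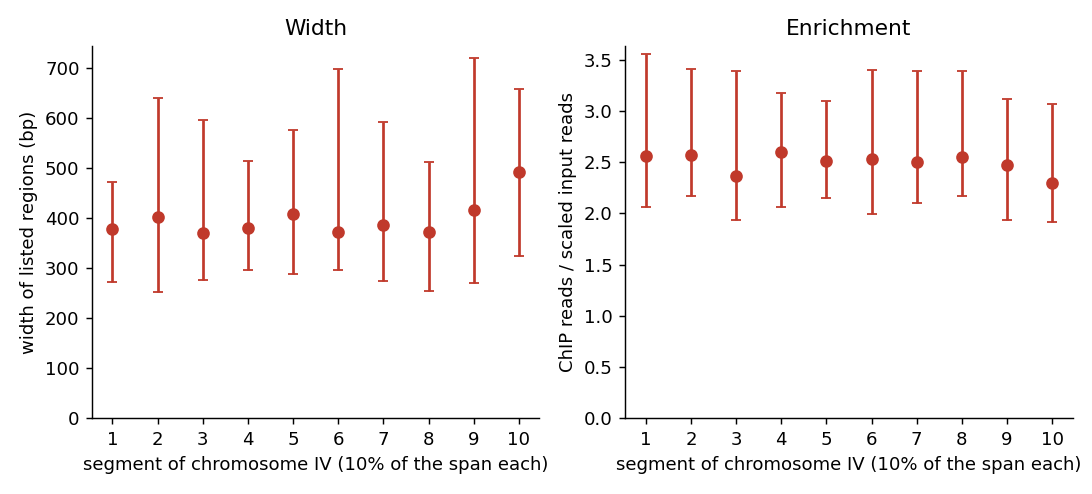
Width in bp (left panel) and enrichment, the ratio of ChIP to scaled input reads (right panel), of listed regions in 10 equal segments of chromosome IV (horizontal axis). Points are medians and bars interquartile ranges over the regions of a segment, not replicate error. Median enrichment stays between 2.30 and 2.60, and the median width is 491 bp in segment 10.

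Input on IV had been scaled by a factor of 1.81, the lowest of the 5 chromosomes, against 1.88 on III, 1.91 on II and V and 1.98 on X. With the read counts held fixed, a lower factor makes it easier for a region to pass. Why the factor of IV was lower was not tested. With the input of IV multiplied by 1.92, the mean factor of the other 4, 978 of its 1055 regions remained in the list at 56.0 per Mb and the density ratio was 0.814 (0.759 to 0.872). The median enrichment over all 1055 regions of IV, with those that no longer passed, was then 2.38-fold. The 2.49-fold of the other chromosomes is over regions that all passed, so the 2 sets are unlike. Among the regions of IV that remained, left over right was 1.79 (1.503 to 2.14).

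By q the region at the head of chromosome IV lay in the sparse segment 9, from 14032400 to 14035051. It was 2652 bp wide and counted 1298 reads in ChIP and 468 in scaled input, a 2.77-fold enrichment at q = 7.77e-87, rank 8 of the whole list. Its input density was 3.11 times that of the median region of IV. The nearest regions lay 18417 bp to its left and 26419 bp to its right. The runner-up, from 10341604 to 10342747 in the centre, had 3.95-fold enrichment, 588 reads in ChIP and 149 in scaled input (q = 1.1e-59).

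The next 2 regions lay close together in the right arm. The first of the pair, from 13695522 to 13696348, counted 395 reads in ChIP and 66 in scaled input (5.98-fold, q = 1.74e-55). The second of the pair, beyond another listed region, ran from 13699113 to 13699898 and counted 376 and 73 (5.15-fold, q = 9.05e-48). Both were under 1000 bp wide, with input density 1.21 and 1.40 times the median of IV. Farther left in the same arm, the 634 bp region from 12771306 to 12771939 counted 285 reads in ChIP and 37 in scaled input (7.70-fold, q = 3.73e-46), at an input density of 0.825.

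Of the 10 regions of IV with the smallest q, 6 lay in the right arm, 2 in the centre and 2 in the left arm, although the right arm held 21.2% of all regions. Among the first 100 of IV the numbers were 24 in the right arm, 39 in the centre and 37 in the left arm. The right-arm leaders were of 2 kinds. The 3 described above from 12771306 to 13699898 were 634 to 827 bp wide and enriched at least 5.15-fold. The other 3 were at least 2162 bp wide. Besides the head region, they were the 5066 bp region from 17276997 to 17282062, with 1176 reads in ChIP and 585 in scaled input (2.01-fold), and the 2162 bp region from 16491373 to 16493534, with 738 and 329 (2.24-fold). These 3 broad ones had input density 2.10 to 3.11 times the median of IV.

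In the left arm and centre the leading regions were also of mixed kinds. The 3993 bp region from 4468102 to 4472094 in the left arm counted 1025 reads in ChIP and 459 in scaled input (2.23-fold, q = 1.85e-47). The 560 bp region from 1419961 to 1420520 counted 365 and 89 (4.10-fold, q = 1.67e-38), with gaps of 30602 and 34480 bp to its neighbours. In the centre, the 955 bp region from 10499796 to 10500750 counted 345 and 77 (4.48-fold, q = 2.54e-39). The leader of segment 2, from 1906708 to 1907288, was the most enriched region of IV with at least 200 ChIP reads, at 7.96-fold (207 and 26 reads). In segment 4 the region from 5607247 to 5608035 led with 362 and 115 reads (3.15-fold, q = 6.5e-29). In segment 5 the 2143 bp region from 8067622 to 8069764 led with 540 and 213 reads (2.54-fold, q = 1.42e-31).

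Width and enrichment pulled in opposite directions on IV. The 76 regions of 1000 bp or more had a median enrichment of 1.95-fold, and 3 of them reached 3-fold. The 942 regions of 50 to under 1000 bp had a median of 2.54-fold. In the 36 regions below 50 bp with inferred reads the median was 5.0-fold, on a median of only 18 reads in ChIP and 4 in scaled input. A listed region with few reads needs a high ratio to pass, which fixes part of this pattern. The widest regions besides those already given were enriched 2.21-fold (3645591 to 3649294, 3704 bp), 1.73-fold (10933788 to 10937181, 3394 bp) and 1.70-fold (4404895 to 4407849, 2955 bp).

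Spacing followed density. The median gap from one region to the next was 6927 bp on IV, against 5823 bp on II, III, V and X. It was 5300 bp in the left arm, 7092 bp in the centre and 9375 bp in the right arm. The nearest midpoint lay within 2000 bp for 372 regions of IV, or 35.3% (32.4 to 38.2), against 37.5% (36.1 to 38.9) on the 4 others. The share was 39.1% in the left arm (34.2 to 44.2), 33.1% in the centre (28.8 to 37.7) and 33.04% in the right arm (26.9 to 39.6), with overlapping intervals. By segment the share ran from 19.5% in segment 6 (11.8 to 29.4) to 44.8% in segment 3 (36.4 to 53.3). In the sparse segment 9 it was 20.0% (10.8 to 32.3). In segment 10, the emptiest, it was 32.7% (20.3 to 47.1), against 28.2% (19.7 to 37.9) in the denser segment 1.

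Long stretches without a region were most frequent in the right arm. Gaps of over 100 kb numbered 17 on IV, with 3 in the left arm, 4 in the centre and 10 in the right arm. II had 13 such gaps, III 3, X 6 and V 37. The longest of IV, from 5209816 to 5394332 (185 kb), began in the left arm and ended in the centre. The next one, of 152 kb, ran from 16503719 to 16656158. After it came 150.2 kb between 15703847 and 15854049, and both lay in the last 2 segments.

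Regions whose neighbouring midpoints lay within 2000 bp formed 13 groups of 4 or more on IV. On II, III, V and X there were 16, 17, 16 and 20. The groups of IV comprised 63 regions, or 5.97% of its regions against 6.55% on the other 4. The centre held 7 of the groups, the left arm 4 and the right arm 2. Segment 7 held 4 groups and segment 5 held 3. There was none in segments 1, 4, 6 and 9. At the other extreme, 683 regions of IV, or 64.7%, had no neighbour within that distance, against 62.5% on the others. Regions in groups of 4 or more had a median enrichment of 2.68-fold and a median width of 420 bp. Lone regions had 2.53-fold and 368 bp, within the interquartile ranges of the grouped ones.

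The group with most regions, 8 of them, lay in the centre from 11347106 to 11354923. Its members were 292 to 776 bp wide and covered 3.88 of 7.82 kb, with gaps of 213 to 1381 bp. The 4th of them, from 11349708 to 11350088, had 5.29-fold enrichment, 127 reads in ChIP and 24 in scaled input, and had the smallest q of the group, 8.49e-17. The others ranged from 2.19-fold to 3.67-fold. Input density in the group was ordinary, with a median of 0.958 relative to IV.

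The next group comprised 7 regions in the left arm from 4574098 to 4583135. They were 113 to 504 bp wide, covered 2.39 of 9.04 kb and were enriched 2.39-fold to 5.20-fold, the highest ratio resting on 26 ChIP reads. A group of 6 lay in the centre from 7657173 to 7663444, in the fullest 1 Mb window. Its members were enriched 2.13-fold to 4.78-fold, and the last of them, from 7662920 to 7663444, had the most reads (152 and 39, q = 1.08e-15). None of these 3 groups contained a region among the first 500 of the whole list. The best-ranked group was a smaller one of 4 regions, from 8066346 to 8071664, which held the leader of segment 5 at rank 124.

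**Figure D5:**
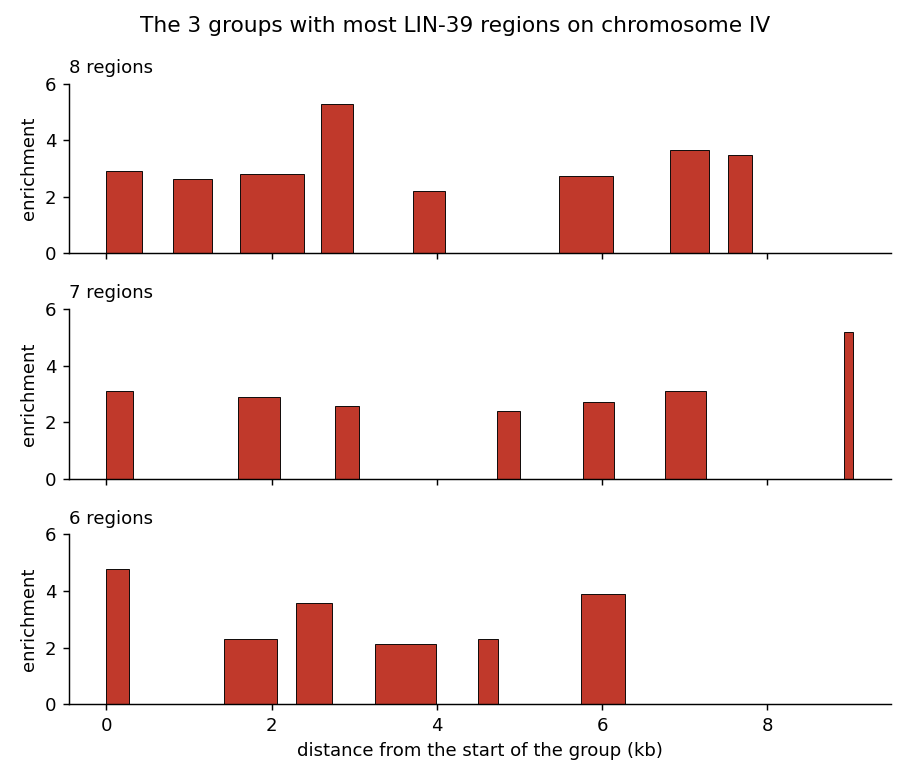
The 3 groups with most listed regions on chromosome IV, with distance from the group's start in kb on the horizontal axis and enrichment (ratio of ChIP to scaled input reads) on the vertical axis. Each bar is 1 region, as wide as the region is. The group of 8 regions spans 7.82 kb and its tallest bar is 5.29-fold.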

How the data were processed

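The data are the q-values of regions in 1 authors' deposited list, which names PeakSeq and WormBase WS180, per the file headers and columns. It combines 2 ChIP and 2 input libraries. The aligner, versions and the way replicates were combined are not given in the sources used here. Members, classes and tests were chosen with earlier results of these data known. Named regions are the 10 with the smallest q, the leader of each of 10 equal segments, the 5 most enriched with at least 200 ChIP reads, the 5 widest and the leading groups, windows and gaps.

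Per the order of the list, q times rank never falls, and p was taken as q times rank over the number of tests. The order alone does not show this form. At 25497 tests, all 60 of the most common values were binomial tails (probability 0.5), and at the next best number 1 was. ChIP and scaled input counts were solved from each p (relative tolerance 3e-11). A single pair fitted 7483 regions and 10 had a pair of solutions, 1 of these on IV, and were left out of read values. These read counts are inferred values. The scaling factor of a chromosome is the one whose multiples, rounded up, best cover its input numbers (96.3% on IV). Input density is input before scaling over width plus 200 bp. Library totals were not used.

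Spans run from 1 to the last region end, and a region belongs to the part that holds its midpoint. Ratio intervals are exact (Clopper-Pearson) 95% binomial intervals. P-values were adjusted by Benjamini-Hochberg. Python 3.11.15, SciPy 1.17.1 and pandas 2.3.3 were used. The procedure was tested on simulated lists of the form that the inference assumes, and the intervals on independent counts. These simulations cannot show that the form holds for this list, and they leave out the clustering of regions. Chromosome I, sequences and genes were not analysed here.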

Additional observations from a re-analysis of the deposited data

Results flagged for a closer look

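The contrast of left with right arm differed between IV and the pool of II, III, V and X. The arms of IV were already known to differ, so the p-value below describes this contrast and does not test it afresh. The odds of the left arm were 1.87 times higher on IV (interval 1.55 to 2.26, Fisher's exact test, p = 9.31e-12). Widened by the dispersion of 100 kb windows, the interval ran from 1.40 to 2.50. Against V alone the odds were 1.31 times higher, and the widened interval of 0.859 to 1.99 included 1, so IV was not separated from V. The left arm of IV held 381 regions and the right arm 224, against 1195 and 1316 on the 4 others. Relative input moved little between the arms of IV (0.968 in the left and 1.02 in the right), and the part of input in the contrast was not tested.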

How the results depend on the processing

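The density ratio of IV to II, III, V and X kept its direction under 9 of 10 alternatives and turned to 1.24 against V alone. The widened interval leaves the value as it was, and a larger input factor on IV lowers its count, so neither could turn this direction. Left over right arm (1.52 to 1.94) and right arm over centre (0.536 to 0.772) kept their direction in 8 of 8 alternatives each and their call in the 7 that give an interval. Covered bases, at 1.598 and 0.729, have no interval. The widened interval, taken from 100 kb windows only, could change the call but not the direction. With arms of 35%, left arm over centre was 1.17 (1.01 to 1.36) and passed the threshold, at an unadjusted p of 0.0323 in the exact binomial test. That interval covers counting error only and was not widened. With arms of 30% the widened interval of this ratio was 0.907 to 1.41. The cause of the changed call was not tested. The odds of 1.31 against V alone lost the call when the interval was widened by the clustering in 100 kb windows. Median width was 495 bp in the better-scoring 50% of the list. Median enrichment was 2.39-fold with a strict tail, 2.29-fold with at least 50 ChIP reads and 2.375-fold with the input of IV rescaled. The share of near neighbours was 11.2% within 1000 bp, 61.4% within 5000 bp and 41.9% by edge-to-edge gap, and groups of 4 or more numbered 5 within 1500 bp, 30 within 3000 bp and 2 in the better-scoring 50%. The rescaled-input alternatives and the widened intervals of the odds were added once values had been seen. Depth per library is unknown. No paired analysis was possible because the list gives no separate values for the replicates, and leaving out a replicate gave no value for the same reason.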
